A study of Mus musculus with 12 samples.

Results

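The comparison of ischemia/reperfusion with sham surgery under vitamin B12 set the 3 heart libraries labelled I/R+B12 against the 3 labelled Sham+B12, over all measured genes. These are 6 of the 12 libraries of the series, and the members were taken by their group labels as deposited. All mice were wild type. Both groups drank water with vitamin B12 at 50 mg/L for 7 days before surgery, at about 4 mL per day, so the controls carry the vitamin as well. In the I/R+B12 mice the left anterior descending coronary artery was occluded for 45 min and then released for 24 h. The Sham+B12 mice had the operation without occlusion. The other 6 libraries came from mice on normal water, 3 Sham and 3 I/R. They enter the filter on low values, the shared estimate of spread and the interaction test, and are given beside some results. The labels do not say how much of a heart was at risk or which piece was taken for RNA. They do not state for each library that it came from a mouse of its own, so the p-values measure the spread between these libraries.

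Reopening a blocked coronary artery restores oxygen to heart muscle but adds injury of its own. Dying muscle cells release molecules that toll-like receptors sense, resident and endothelial cells answer with chemokines and cytokines, and neutrophils and then monocytes enter the wall within the first day. The surviving muscle switches on immediate early, heat shock and other stress genes, while genes of fatty acid use, ion channels and contraction often lose transcript. Vitamin B12 is the cofactor of methionine synthase and methylmalonyl-CoA mutase.

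Expression was deposited as FPKM, fragments scaled to transcript length and library size. The 6 libraries held an estimated 24.5 to 28 M fragments, and 11490 to 12366 genes reached an FPKM of 1 in them. So an FPKM of 1 rests on 30.4 to 34.4 fragments when the transcript is 1500 nt long. Markers of ventricular muscle stood at a high level, as the tissue label says: the 16 markers summed to an FPKM of 66748 to 73293 in Sham+B12 and 49891 to 71392 in I/R+B12. Of 8 atrial markers 5 were tested and 0 called, with a summed FPKM of 252 to 261 in Sham+B12 and 248 to 394 in I/R+B12. Nppa, which ventricles also express, made up most of it, and the other tested atrial markers made up the rest. The atrial genes Sln and Bmp10 stayed at or under 0.12. The amount of atrial tissue in the libraries was not tested. Of 8 lung epithelial markers, 7 were listed at 0 in all 6 libraries. Among the normal-water libraries the one labelled Sham 3 and the one labelled I/R 3 went against their labels. Lcn2, an acute phase gene, was at 5.01, 3.2 and 210.5 in Sham 1, 2 and 3 and at 279, 447 and 3.04 in I/R 1, 2 and 3. Some results are therefore given with and without these 2 libraries. Every call uses a spread that includes both, so a count given once can also differ without them.

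The promoters of the most strongly raised chemokine genes are shown first, because 3 neighbouring genes of 1 cluster carry the same run of bases. Cxcl1, Cxcl2 and Cxcl3 code for ligands that draw neutrophils through the receptor Cxcr2, and Il6 codes for the cytokine interleukin-6. The lines give the 120 bases before the RefSeq start of each gene, 5′ to 3′ on the plus strand of chromosome 5 of GRCm38.p6, with matches to the NF-kB consensus in capitals.
Cxcl1 (chr5:90891125-90891244): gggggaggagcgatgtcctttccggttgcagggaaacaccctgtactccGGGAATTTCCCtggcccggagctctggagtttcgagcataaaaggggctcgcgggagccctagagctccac
Cxcl2 (chr5:90903779-90903898): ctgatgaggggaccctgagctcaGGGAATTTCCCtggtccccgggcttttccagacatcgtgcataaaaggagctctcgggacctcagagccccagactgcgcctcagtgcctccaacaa
Cxcl3 (chr5:90785981-90786100): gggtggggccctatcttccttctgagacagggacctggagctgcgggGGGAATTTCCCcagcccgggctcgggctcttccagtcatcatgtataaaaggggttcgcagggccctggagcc
Il6 (chr5:30012994-30013113): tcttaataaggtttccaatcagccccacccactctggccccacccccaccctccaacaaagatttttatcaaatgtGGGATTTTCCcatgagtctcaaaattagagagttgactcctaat
The match in all 3 chemokine promoters was the same run of 11 bases, GGGAATTTCCC, which holds 1 match on each strand. Between it and the start lay 60 bases in Cxcl1, 86 in Cxcl2 and 62 in Cxcl3. The Il6 match was GGGATTTTCC, with 34 bases between it and the start. Of the 15 genes with the largest increases, 14 had a RefSeq promoter (250 bases before to 50 after the start), and in 5 of them the window held a match on either strand: Cxcl1, Cxcl2, Cxcl3, Il6 and Ptx3. Of all 9831 tested genes with a promoter, 6.42% held one. None of the 13 promoters of the genes with the largest decreases did, which is no contrast at so low a share. Other motifs were searched in the same windows of the 14 and the 13 genes. TATAAA was in 4 and 3 (9.31% of tested genes), the AP-1 motif in 2 and 0 (6.29%). The E-box CACGTG was in 2 and 1 (11.9%), the STAT motif in 2 and 1 (8.18%) and the CRE motif in 0 and 0 (3.4%). A match is a description of the letters in this window and does not show that a factor bound there.

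After I/R under B12, members of the chemokine, interleukin-6, acute phase, early stress, TGF-beta, matrix protease and ribosome biogenesis lists were higher. Members of the complement, resident macrophage, lipid transporter, ion channel and B12 use lists were lower. Of 13001 tested genes, 882 were higher and 470 lower in I/R+B12 than in Sham+B12, at a Benjamini-Hochberg adjusted p under 0.05 in limma. These are 6.78% and 3.62% of the genes tested, the background against which the counts below are read. The difference was 1 or more on the log2(FPKM + 1) scale for 293 of the higher and 180 of the lower genes, and 2 or more for 66 and 9. The 6 libraries did not overlap, I/R+B12 higher, in 19.1% of all tested genes, and, I/R+B12 lower, in 13.2%. Over all tested genes the median was -0.02. Differences below are I/R+B12 minus Sham+B12 on that scale, 3 libraries a group, with ± the standard error of the fit. That error uses a spread estimated over all 12 libraries, Sham 3 and I/R 3 included, and not the spread of the 6 compared libraries alone. The differences understate the change of genes of low FPKM. FPKM values are in the order of libraries 1, 2 and 3.

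Adjusted p-values of the calls lay between 0.0155 and the threshold, and the counts moved when single libraries were left out. Without Sham+B12 1 or Sham+B12 3 no gene was called, though 3113 and 3069 had an unadjusted p under 0.05. Without Sham+B12 2 the count was 24 higher and 8 lower, and without I/R+B12 2 it was 37 and 12. Without I/R+B12 1 it was 1346 and 2490. Leaving out a normal-water library, which changes only the estimate of spread, gave 593 and 282 without Sham 1, 562 and 268 without Sham 2, 640 and 261 without I/R 1, and 447 and 194 without I/R 2. It gave 908 and 541 without Sham 3, and 1004 and 489 without I/R 3. The 6 compared libraries fitted alone gave 166 and 75. The balance also moved with scaling: 65.2% of the calls were higher here, 55.2% after median-ratio scaling and 48.2% after quantile normalization. All counts of called members below rest on the fit of all 12 libraries. A gene under an FPKM of 1 in every Sham+B12 library, such as Cxcl2, Il1b, Il6 or Adamts4, could pass the filter only through other libraries. Where a list holds such genes, its count, median and shared direction are partly set by the filter and are no separate support.

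The 3 I/R+B12 libraries differed from each other more than the 3 Sham+B12 libraries did. The median SD of a gene on the log2 scale was 0.321 in I/R+B12 and 0.136 in Sham+B12, and 82.1% of genes had the larger SD in I/R+B12. I/R+B12 2 lay farthest from the Sham+B12 mean in 597 of the 882 higher and 394 of the 470 lower genes. I/R+B12 3 was farthest in 168 and 44, and I/R+B12 1 in 117 and 32. Of the 1352 called genes, 3 had overlapping groups. Where separate groups are mentioned below for a called gene, they follow largely from the call and are no further support. In bulk tissue, fewer cells of a type and less RNA per cell cannot be told apart.

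**Figure D1:**
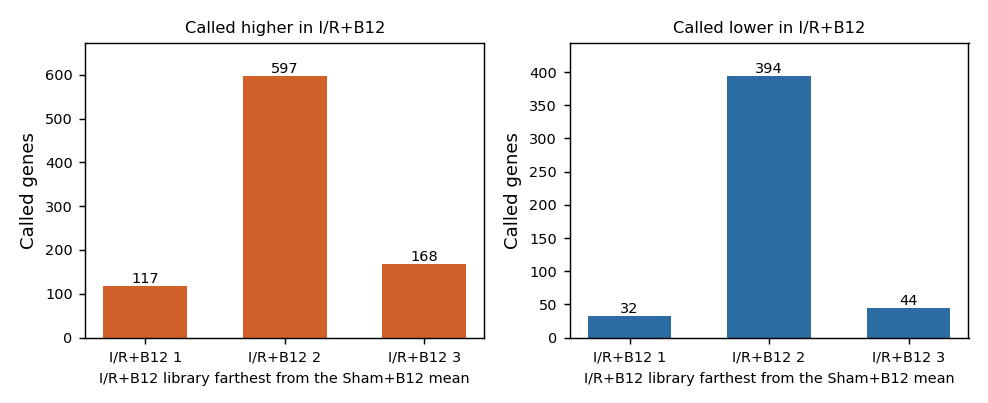
Bars count, for the 882 genes called higher (left) and the 470 called lower (right), which I/R+B12 library lay farthest from the Sham+B12 mean on the log2(FPKM + 1) scale. I/R+B12 2 holds 597 and 394 of them.

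Neutrophil-attracting chemokines were among the largest increases. Cxcl1 had an FPKM of 0.66, 0.93 and 0.56 in Sham+B12 and 32.7, 465 and 51.9 in I/R+B12. Its difference was 5.78 ± 1.20, adjusted p = 0.025. Cxcl2 went from 0.22, 0.13 and 0 to 29, 378 and 20.7, a difference of 5.82 ± 1.20, adjusted p = 0.025. Cxcl3 stood at 0.05, 0.05 and 0.05 in Sham+B12 and at 64.9, 146 and 11.6 in I/R+B12 (5.56 ± 1.47, adjusted p = 0.0404). In each of the 3 genes the lowest I/R+B12 library was far above the highest Sham+B12 library, and I/R+B12 2 was the highest. Cxcl10, which attracts T cells, went from 1.01, 0.57 and 0.59 to 2.34, 11.3 and 3.8 (1.77 ± 0.42, adjusted p = 0.0321). Of the 12 tested CXC ligands and receptors 4 rose and none fell, with a median of 1.06. Cxcl1, Cxcl2 and Cxcl3 stood under an FPKM of 1 in Sham+B12 and could pass the filter only through other libraries. The count and median are therefore partly set by the filter. Cxcl5 was at 0.09, 0.15 and 0.28 in Sham+B12 and 31.7, 77.5 and 12.9 in I/R+B12 without passing the test (adjusted p = 0.0513).

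Among CC chemokines and their receptors, 3 of 19 rose and 2 fell. Ccl2, the main monocyte attractant, went from 0.83, 1.27 and 1.42 to 86.5, 162 and 21.4, a difference of 4.99 ± 1.27, adjusted p = 0.0378. Ccl3 (3.74 ± 0.94, adjusted p = 0.0365) and Ccl4 (2.90 ± 0.78, adjusted p = 0.0412), macrophage inflammatory proteins, rose as well. Ccl21a, a lymph vessel chemokine, fell from 62, 79.5 and 60.2 to 23.7, 22.3 and 30.9 (-1.36 ± 0.36, adjusted p = 0.0405). Ccl11, which attracts eosinophils, fell from 3.7, 8.11 and 5.59 to 0.99, 3.34 and 1.23 (-1.29 ± 0.36, adjusted p = 0.046). Groups did not overlap in any of these 5 genes. Ccl21a has near-identical copies in the mouse genome, so its value is uncertain. With Sham 3 and I/R 3 out of the fit, 6 CXC members rose and 1 fell, and 6 CC members rose and 2 fell.

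Interleukin-1 genes followed. Il1b, the secreted cytokine, went from 0.24, 0.17 and 0.15 to 34.8, 126 and 5.57, a difference of 4.71 ± 1.11, adjusted p = 0.0305. Il1r1, the signalling receptor, went from 2.81, 3.02 and 3.04 to 7.1, 14.4 and 8.22 (1.41 ± 0.36, adjusted p = 0.0378). Il1r2, the decoy receptor that binds interleukin-1 without signalling, went from 0.19, 0.15 and 0.08 to 25.4, 77.1 and 9.77 (4.63 ± 1.04, adjusted p = 0.0277). Cytokine, receptor and decoy were all higher in each I/R+B12 library. These were the 3 of 12 tested members of the interleukin-1 and inflammasome list that passed. Il1b and Il1r2 could enter the test only through libraries other than Sham+B12. The antagonist Il1rn (15.6, 83 and 0.99 in I/R+B12) and the sensor Nlrp3 (1.78, 8.07 and 0.49) had high values in I/R+B12 2 and values under 1 in I/R+B12 3, and neither passed (adjusted p = 0.0893 and 0.0889).

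Of 15 tested members of the interleukin-6 family and its signalling 7 were higher and none lower. Il6 and Osm could enter the test only through libraries other than Sham+B12. Il6 was listed at 0 in all 3 Sham+B12 libraries and stood at 8.68, 74.7 and 7.84 in I/R+B12 (adjusted p = 0.0283). Osm, the cytokine oncostatin M, went from 0.04, 0.06 and 0.08 to 2.04, 6.65 and 1.21, and its receptor Osmr from 4.89, 5.87 and 4.14 to 15.9, 20.5 and 15. Il6ra, the ligand-binding receptor chain, went from 1.6, 2.15 and 1.64 to 3.77, 6.07 and 4.04. Ligands and receptors were thus raised together, and the differences were 1.81 ± 0.43, adjusted p = 0.032 for Osm, 1.60 ± 0.36, adjusted p = 0.0277 for Osmr and 0.99 ± 0.23, adjusted p = 0.0298 for Il6ra. Downstream, Stat3, the transcription factor of this pathway, was close within each group, at 31.3, 30.6 and 33.4 in Sham+B12 and 77.8, 83.1 and 68.1 in I/R+B12 (1.23 ± 0.32, adjusted p = 0.0394). Socs3, the feedback inhibitor that Stat3 induces, went from 1.73, 1.64 and 1.35 to 26.5, 179 and 25 (4.30 ± 0.90, adjusted p = 0.0253). Jak2, the kinase between receptor and Stat3, was called last at 0.78 ± 0.21, adjusted p = 0.0425, and was named after its values were seen.

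Toll-like receptor and NF-kB genes had a positive difference in 19 of 19 tested members, with a median of 1.16, and 5 passed. Tlr4, the endotoxin and damage receptor, went from 1.94, 2.2 and 2.21 to 6.61, 4.7 and 3.99 (0.95 ± 0.26, adjusted p = 0.0451). Myd88, the adaptor shared by most toll-like receptors and the interleukin-1 receptor, went from 6.81, 7.77 and 6.59 to 20.2, 25.8 and 17.3 (1.44 ± 0.33, adjusted p = 0.028). The NF-kB subunit Rel went from 0.91, 0.92 and 0.89 to 2.24, 4.96 and 2.97 (1.16 ± 0.21, adjusted p = 0.0207). Receptor, adaptor and subunit were separated from Sham+B12 in every library. The nuclear IkB proteins Bcl3 and Nfkbiz, which tune NF-kB at its targets, rose by 2.15 and 2.17 (adjusted p = 0.0265 and 0.041).

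Acute phase genes, which code for secreted proteins of the inflammatory response, held some of the largest increases. Saa3, serum amyloid A3, went from 0.52, 0.18 and 0.28 to 116, 839 and 17.1, a difference of 6.52 ± 1.81, adjusted p = 0.0446. Lcn2, lipocalin 2, which binds bacterial iron carriers, went from 6.07, 7.55 and 4.25 to 489, 1176 and 172 (6.09 ± 1.75, adjusted p = 0.0491). Ptx3, a pattern recognition protein, went from 0.3, 0.33 and 0.3 to 6.61, 74.4 and 24.7 (4.23 ± 1.10, adjusted p = 0.0392). The values within I/R+B12 spread widely, and I/R+B12 3 was the lowest for Saa3 and Lcn2. Steap4, a metalloreductase, was the fourth called member of 10 tested, at 12, 13.3 and 13.5 in Sham+B12 and 23.1, 51.7 and 33.5 in I/R+B12 (1.34 ± 0.26, adjusted p = 0.0231). With Sham 3 and I/R 3 left out, 9 of the 10 rose.

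Neutrophil markers moved with these genes. Of 18 listed, 13 were tested, all 13 with a positive difference, and 4 passed. A marker near 0 in Sham+B12, such as Trem1 below, could pass the filter only through other libraries. The shared direction of the 13 is therefore partly set by the filter and is no separate support. S100a9, a calcium-binding protein that fills neutrophil cytoplasm, went from 0, 21.1 and 3.16 to 407, 1139 and 53.9 (6.03 ± 1.73, adjusted p = 0.0485). Retnlg went from 0, 1.33 and 0.25 to 33, 233 and 14.8 (5.13 ± 1.39, adjusted p = 0.0421), and Trem1, an activating receptor, from 0.03, 0.11 and 0 to 4.83, 20.4 and 1.67 (2.73 ± 0.79, adjusted p = 0.0493). The order I/R+B12 2, then 1, then 3 held for all 3 genes and for Il1r2. The tested markers summed to an FPKM of 2.56 to 39.4 in Sham+B12 and 126 to 2269 in I/R+B12. Mpo and Elane, granule genes of immature neutrophils, were at or under 0.11 in all 6 libraries. Without Sham 3 and I/R 3 in the fit, 10 of the 13 rose. The part of these cells in the chemokine and acute phase values was not tested. Platelet markers summed to an FPKM of 49.8 to 102 in Sham+B12 and to 118, 240 and 17 in I/R+B12, with 0 of 5 called. Erythroid markers summed to 7397 to 14102 in Sham+B12 and to 4695, 16104 and 8915 in I/R+B12, with 0 of 6 called. Both were highest in I/R+B12 2, and the part of blood in the neutrophil values was not tested.

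Markers of recruited monocytes and macrophages gave 1 call in 18 tested: Cd14, the co-receptor of Tlr4, went from 8.3, 9.26 and 7.67 to 44.7, 196 and 25 (2.72 ± 0.66, adjusted p = 0.0337). Chil3 was at 0, 0.81 and 0 in Sham+B12 and 120.3, 42.9 and 2.68 in I/R+B12 and did not pass (adjusted p = 0.0836). The summed level of the list was 262 to 539.9 in Sham+B12 and 179 to 845 in I/R+B12, with I/R+B12 3 lowest and the groups overlapping. Leaving out Sham 3 and I/R 3 gave 4 calls. Of 14 adhesion molecules, Icam1, which arrests leukocytes on endothelium, went from 6.22, 7.54 and 6.8 to 22.9, 80.0 and 14.6 (1.99 ± 0.50, adjusted p = 0.0361), and the junction protein F11r from 16.5, 18.5 and 18 to 26.7, 26 and 21.7 (0.46 ± 0.12, adjusted p = 0.0393). Sele, E-selectin, was at 0.34, 0.38 and 0.34 in Sham+B12 and 3.91, 21.4 and 1.7 in I/R+B12, and Selp, P-selectin, at 0.19, 0.89 and 0.21 in Sham+B12 and 5.7, 40.8 and 4.19 in I/R+B12. Both selectins were separated between groups but missed the threshold (adjusted p = 0.058 and 0.0573), and without Sham 3 and I/R 3 in the fit 6 adhesion molecules rose and 1 fell. Of 15 lymphocyte markers 3 were tested, all with a negative difference, and 0 were called (1 lower without Sham 3 and I/R 3, and 1 at an unadjusted p under 0.05 in limma). Their summed FPKM was 8.77 to 15.5 in Sham+B12 and 2.33 to 5.2 in I/R+B12, with no overlap between the groups, and most of it was Ighm, an immunoglobulin chain. Cd3e, Cd8a and Ms4a1 were at or under 0.21 in all 6 libraries.

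**Figure D2:**
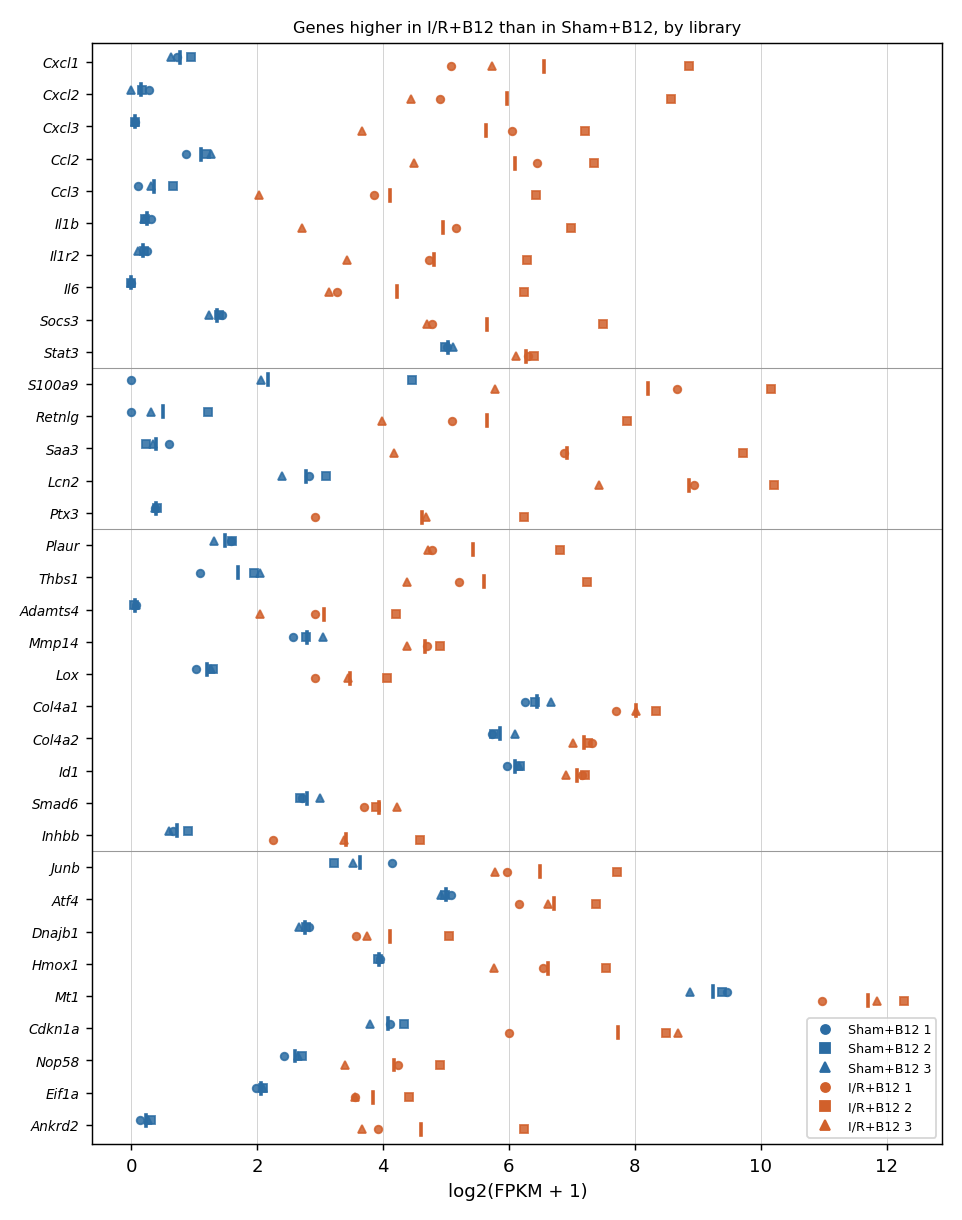
Points give log2(FPKM + 1) in each library for genes called higher, Sham+B12 in blue and I/R+B12 in orange, with the replicate number as the marker shape and a short line at the group mean. Sections from the top hold cytokines and signalling, neutrophil and acute phase genes, matrix and TGF-beta genes, and stress and growth genes. No gene shown has overlapping groups, and I/R+B12 2 (square) is the highest in 31 of 34 genes.

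Several early stress transcription factors rose. Of 14 AP-1 and related bZIP factors 13 had a positive difference and 5 passed, with a median of 1.30. The fit without Sham 3 and I/R 3 called 6 of them higher and 1 lower. Junb, an AP-1 subunit, went from 16.7, 8.35 and 10.4 to 61.6, 209.6 and 53.8 (2.86 ± 0.67, adjusted p = 0.0306), and Fosl2, its Fos partner, from 3.61, 3.52 and 4.49 to 10.7, 33.4 and 12.6 (1.86 ± 0.41, adjusted p = 0.0277). Fos itself was at 3.78, 0.59 and 0.86 in Sham+B12 and 9.73, 91.8 and 7.34 in I/R+B12 and did not pass (adjusted p = 0.058). All 20 tested EGR, NR4A and other immediate early genes had a positive difference and 5 passed. Klf4, an endothelial and smooth muscle regulator, was close within each group, at 10.8, 15.2 and 12.6 in Sham+B12 and 30.3, 26.5 and 25.8 in I/R+B12 (1.05 ± 0.20, adjusted p = 0.0226). Dusp5, a phosphatase that switches off ERK, went from 0.89, 0.97 and 1.03 to 6.22, 17 and 4.69 (2.20 ± 0.50, adjusted p = 0.0283).

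In the integrated stress response, which slows general translation and favours a few messages, 4 of 16 tested members rose and 1 fell. Atf4, its effector, went from 32.8, 30.8 and 29.2 to 70.2, 166 and 97.3, a difference of 1.72 ± 0.27, adjusted p = 0.0155. Its amino acid transporter targets Slc7a1 and Slc3a2 rose by 1.07 and 1.35 (adjusted p = 0.0236 and 0.0353). Atf5 fell from 25.7, 33 and 28.5 to 24.1, 14.6 and 12.6 (-0.78 ± 0.21, adjusted p = 0.044), and Chac1, another Atf4 target, was at 6.85, 4.55 and 5.67 in Sham+B12 and 2.1, 2.06 and 2.66 in I/R+B12 (adjusted p = 0.0657). Members thus moved in both directions, and 6 were called higher and 2 lower without Sham 3 and I/R 3. Among heat shock proteins 11 of 19 had a positive and 8 a negative difference. The 3 calls were all J-domain cochaperones, which hand clients to Hsp70. The fit without Sham 3 and I/R 3 called 3 of the list higher and 2 lower. Dnajb1 went from 6.11, 5.87 and 5.37 to 10.8, 32 and 12.4 (1.36 ± 0.30, adjusted p = 0.0277), Dnaja1 from 15.7, 17.4 and 17.8 to 35.3, 30.4 and 25.2 (0.79 ± 0.14, adjusted p = 0.0208) and Dnajb4 from 20.7, 20.3 and 23.1 to 31.6, 46.1 and 38.7 (0.82 ± 0.18, adjusted p = 0.0265). Of 18 endoplasmic reticulum chaperones and their regulators 2 rose, and 4 without Sham 3 and I/R 3. Dnajc3, which restrains the kinase Perk, was close within each group, at 6.81, 7.34 and 7.47 in Sham+B12 and 13.3, 16.2 and 14.9 in I/R+B12 (0.94 ± 0.16, adjusted p = 0.0191), and Xbp1, the unfolded protein response factor, went from 30.6, 32.2 and 33.6 to 82.5, 78.9 and 59.3 (1.16 ± 0.28, adjusted p = 0.0344).

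Some genes against oxidants and metals rose. Nfe2l2, which codes for NRF2, went from 25.9, 26.5 and 27.6 to 37, 62.3 and 43 (0.77 ± 0.19, adjusted p = 0.0321). Its targets Hmox1, which breaks down heme, and Txnrd1, a thioredoxin reductase, were the other calls among 19 tested. Hmox1 went from 14.4, 14.2 and 14.5 to 91.6, 186 and 53.2 (2.67 ± 0.70, adjusted p = 0.0398) and Txnrd1 from 15.3, 16.9 and 16.8 to 41.8, 72.3 and 33.1 (1.45 ± 0.29, adjusted p = 0.0236). No member of the list fell, and 0 of 14 superoxide and peroxide enzymes were called in limma, with 3 at an unadjusted p under 0.05. Of 14 metallothioneins and zinc transporters 4 rose. Mt1, a zinc- and copper-binding protein, reached 2015, 4938 and 3674 from 702, 666 and 471 (2.46 ± 0.66, adjusted p = 0.042). Mt2 was at 173, 233 and 132 in Sham+B12 and 1268, 4130.0 and 2341 in I/R+B12, and did not pass (3.71 ± 1.10, adjusted p = 0.0523). The zinc transporters Slc30a4, Slc39a10 and Slc39a14 rose by 1.13, 0.65 and 1.30 (adjusted p = 0.0188, 0.0331 and 0.0487).

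A cell cycle inhibitor and several genes of the necroptosis and death receptor list rose. Cdkn1a, the p21 inhibitor of cyclin-dependent kinases, went from 16.2, 19.1 and 12.9 to 63, 359.6 and 410.3 (3.65 ± 0.91, adjusted p = 0.0362), with I/R+B12 3 the highest library. It was 1 call among 14 p53 targets (2 without Sham 3 and I/R 3), whose median was 0.23; Mdm2 was at 17.4, 15.7 and 15.5 in Sham+B12 and 19.4, 23.9 and 21.6 in I/R+B12 (adjusted p = 0.0551). Of 16 necroptosis and death receptor genes 4 rose. Tnfrsf1a, the main TNF receptor, went from 27.8, 31.8 and 30.9 to 65.2, 73.6 and 61.4 (1.12 ± 0.25, adjusted p = 0.0279), and Tnfrsf12a, the receptor of TWEAK, from 34.2, 33.5 and 42.7 to 103, 332 and 160.3 (2.24 ± 0.57, adjusted p = 0.0378). Tnfrsf10b, the TRAIL receptor, and Ripk1, a kinase below Tnfrsf1a, rose by 1.10 and 0.81 (adjusted p = 0.0236 and 0.0433). Of 20 glucocorticoid-responsive genes 4 rose, and 7 without Sham 3 and I/R 3. Beside Cdkn1a and Lcn2, these were Sgk1 and Errfi1, which rose by 1.47 and 1.66 (adjusted p = 0.019 and 0.0265), while Fkbp5, a chaperone of the hormone receptor, was at 19.6, 15.4 and 8.54 in Sham+B12 and 43.2, 61.5 and 82.8 in I/R+B12 without passing (adjusted p = 0.0734).

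TGF-beta and BMP signalling had 10 of 21 tested members higher and none lower, with a median of 0.63. The receptor Tgfbr1 went from 1.93, 2.4 and 2.37 to 4.1, 5.44 and 4.3 (0.79 ± 0.14, adjusted p = 0.0197). Inhbb, which codes for a subunit of activin B, was the ligand gene called, at 0.59, 0.87 and 0.51 in Sham+B12 and 3.76, 23.1 and 9.36 in I/R+B12 (2.68 ± 0.51, adjusted p = 0.0226). Id1, a direct target of BMP receptors, stood at 61.5, 70.9 and 70.4 in Sham+B12 and 142, 146 and 118 in I/R+B12 (0.99 ± 0.14, adjusted p = 0.0155). Id3 went from 61.3, 65.7 and 60.0 to 106, 90.0 and 88.1 (0.59 ± 0.13, adjusted p = 0.0265). These targets were separated from Sham+B12 in each of the 3 I/R+B12 libraries. Feedback inhibitors were raised beside the targets. Smad6, the inhibitor of BMP signalling, went from 5.57, 5.41 and 7.01 to 12, 13.8 and 17.6 (1.14 ± 0.16, adjusted p = 0.0155), and Skil, a repressor of Smad complexes, from 1.54, 2.25 and 1.95 to 5.87, 8.23 and 3.57 (1.19 ± 0.22, adjusted p = 0.0224). The other calls, named after their values were seen, were the receptors Bmpr2 and Tgfbr2, the target Id2 and the inhibitor Smad7, with differences of 0.63, 0.75, 1.70 and 0.64 (adjusted p = 0.0268, 0.0357, 0.0271 and 0.0281).

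Of the collagens, 2 of 18 rose and none fell. Col4a1 and Col4a2, whose products form the collagen IV network of basement membranes and whose genes lie head to head on chromosome 8 (Col4a1 at chr8:11198423-11312826, Col4a2 at chr8:11312805-11449287, GENCODE M21 on mm10), were these 2. Col4a1 went from 75.6, 84.5 and 101 to 208, 320.5 and 259 (1.57 ± 0.19, adjusted p = 0.0155). Col4a2 went from 51.8, 53.5 and 67.5 to 159, 151 and 129 (1.33 ± 0.20, adjusted p = 0.0155). Both were at the smallest adjusted p of the comparison. Their 5′ ends overlap, so a few reads there could belong to either. Of the whole list 13 of 18 had a negative difference and the median was -0.52. Col1a2, a fibrillar collagen chain of scar, was at 29.7, 33.6 and 38.8 in Sham+B12 and 29.4, 13.7 and 21.1 in I/R+B12 (adjusted p = 0.0875), and 2 collagens fell in the fit without Sham 3 and I/R 3. Endothelial markers were partly raised: Pecam1 (0.63 ± 0.13, adjusted p = 0.0259), the tight junction gene Cldn5 (1.35 ± 0.29, adjusted p = 0.0265) and Esam (0.62 ± 0.15, adjusted p = 0.0344) rose, and the median of 15 tested was 0.08 and Vwf was at 51.1, 68.6 and 65.9 in Sham+B12 and 38.5, 48.5 and 48.6 in I/R+B12 (adjusted p = 0.0731). The part of endothelial content in the collagen IV values was not tested.

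Several matrix-cutting enzymes rose. Of 18 matrix proteases and inhibitors 4 were higher, with a median of 1.38. Mmp14, a membrane-bound collagenase, went from 4.93, 5.87 and 7.31 to 24.9, 28.9 and 19.9 (1.86 ± 0.38, adjusted p = 0.0241). The aggrecanases Adamts4, Adamts9 and Adamts1 rose by 2.99, 1.86 and 1.87 (adjusted p = 0.0364, 0.0236 and 0.0416). Adamts4 was nearly absent in Sham+B12 (0.06, 0.03 and 0.06) and reached 6.57, 17.6 and 3.12, so it could enter the test only through other libraries. Without Sham 3 and I/R 3 in the fit 8 rose and 1 fell. Of the plasminogen system, the urokinase receptor Plaur went from 1.99, 2.04 and 1.48 to 26.4, 112 and 25.2 (3.94 ± 0.79, adjusted p = 0.0236) and the activator Plat from 10.4, 12.7 and 12.2 to 21.3, 57 and 19.3 (1.22 ± 0.33, adjusted p = 0.042). Thbs1, thrombospondin 1, which can activate latent TGF-beta, went from 1.14, 2.88 and 3.13 to 36, 149.6 and 19.9 (3.91 ± 1.03, adjusted p = 0.0398). Lox, which cross-links collagen, went from 1.04, 1.47 and 1.42 to 6.54, 15.7 and 9.94 (2.27 ± 0.54, adjusted p = 0.032), and Has1, a hyaluronan synthase, from 0.02, 0.02 and 0.07 to 1.58, 4.25 and 0.67 (1.45 ± 0.39, adjusted p = 0.0412). Of 20 matricellular genes 3 rose and 1 fell, against 4 and 4 without Sham 3 and I/R 3. Of 18 angiogenic genes 3 rose, and 5 without these 2 libraries. Sphk1, a sphingosine kinase, went from 1.27, 1.46 and 1.09 to 6.64, 91 and 32.8 (3.66 ± 0.77, adjusted p = 0.0253) and Pgf, placental growth factor, from 4.86, 5.42 and 5.15 to 19.4, 127 and 16.2 (2.53 ± 0.63, adjusted p = 0.0353). Wt1, an epicardial gene, went from 1.05, 2.1 and 1.43 to 3.86, 7.62 and 4.27 (1.28 ± 0.22, adjusted p = 0.0197), while the other 7 mesothelial markers did not reach the level to be tested.

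Several genes that build ribosomes rose. Of 20 ribosome biogenesis factors 8 rose and none fell, with a median of 0.59, and 10 rose without Sham 3 and I/R 3. Nop58, a core protein of the box C/D particles that methylate ribosomal RNA, went from 4.38, 5.57 and 5.26 to 17.9, 28.9 and 9.5 (1.58 ± 0.39, adjusted p = 0.0337). Ncl, nucleolin, went from 26.8, 29.4 and 30.0 to 52.7, 69.1 and 44.2 (0.90 ± 0.21, adjusted p = 0.0305). Gnl3, Ddx21, Nolc1 and Wdr43, further nucleolar proteins, rose by 1.28, 1.15, 1.06 and 1.12 (adjusted p = 0.0303, 0.0337, 0.0265 and 0.0265). I/R+B12 3 was the lowest I/R+B12 library for Nop58, Ncl, Gnl3, Ddx21 and Nolc1. The 24 ribosomal proteins all had a positive difference with a small median of 0.32, and 1, Rpl5, passed; reads of such genes can be split with processed pseudogenes. The initiation factors Eif1a, Eif5 and Eif2s2 rose by 1.79, 1.25 and 0.74 (adjusted p = 0.025, 0.0184 and 0.0276). Eef1a2, the elongation factor form of muscle and neurons, fell from 874, 727 and 882 to 508, 262 and 477 (-1.04 ± 0.22, adjusted p = 0.0259). In polyamine metabolism Srm, which makes spermidine, and Sat1, which acetylates it for export, both rose (1.18 ± 0.31, adjusted p = 0.0393 and 2.26 ± 0.53, adjusted p = 0.0305), and Paox, which oxidizes the acetylated form, fell (-0.54 ± 0.14, adjusted p = 0.0361). Cytoskeletal genes Tubb6, Tuba1c and Tpm3 rose by 1.77, 1.60 and 1.08 (adjusted p = 0.0417, 0.038 and 0.0378).

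**Figure D3:**
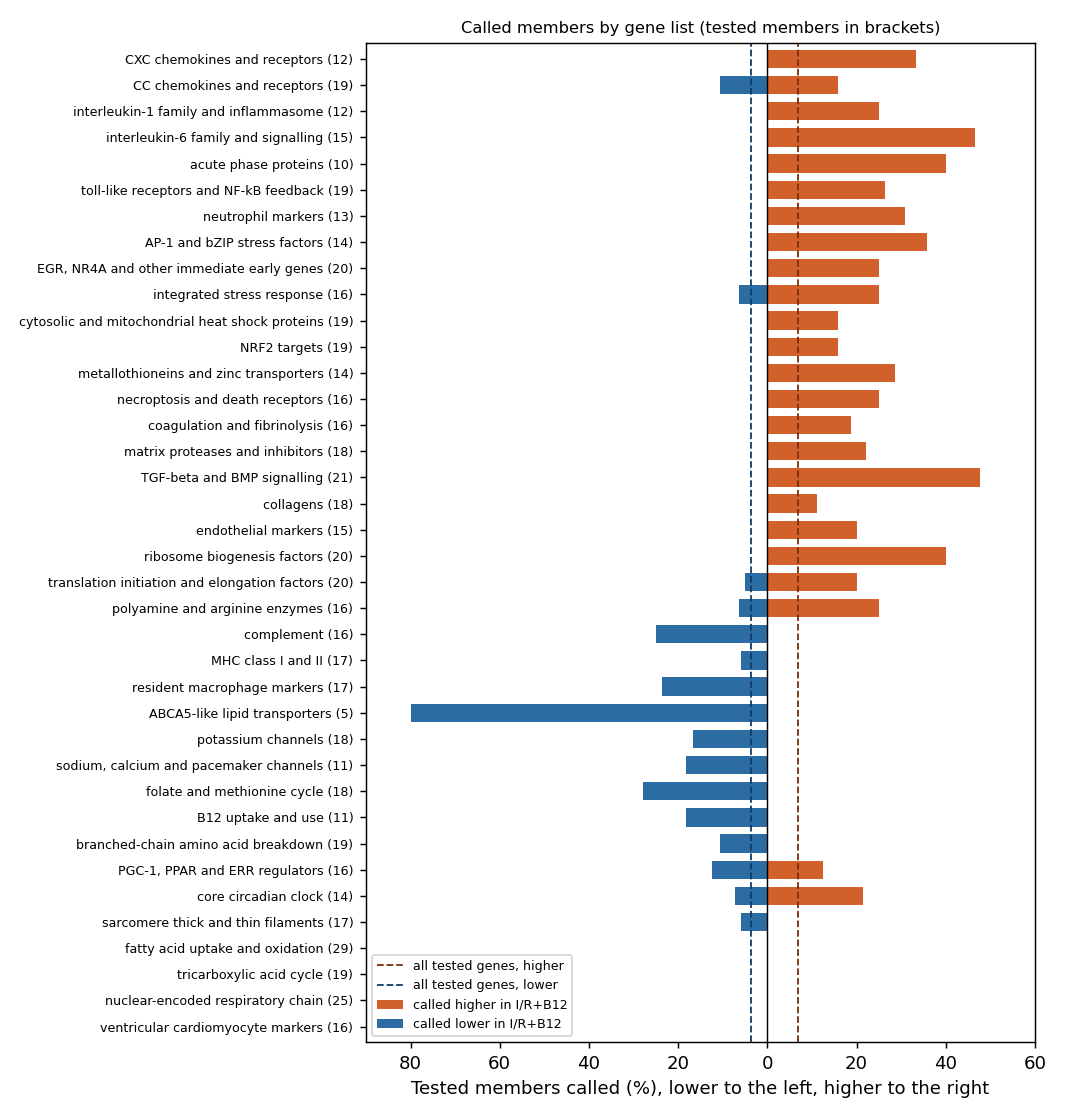
Bars give the percentage of tested members of each gene list called higher (orange, to the right) or lower (blue, to the left) in I/R+B12, with the number tested in brackets. Dashed lines mark the same percentages over all tested genes, 6.78% higher and 3.62% lower. The TGF-beta and interleukin-6 lists reach farthest to the right and the 5 ABCA5-like transporters farthest to the left. The fatty acid, tricarboxylic acid and respiratory chain lists near the bottom have no call.

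On the lower side, 4 of 16 tested complement genes fell and none rose, and the median was -0.53. C1s1, a protease of the first complement component, was almost the same in all libraries of a group, at 18.9, 18.6 and 19.5 in Sham+B12 and 9.69, 9.72 and 9.67 in I/R+B12 (-0.90 ± 0.15, adjusted p = 0.0184). Its partner protease C1ra went from 9.29, 9.27 and 9.73 to 6.14, 5.08 and 6.66 (-0.59 ± 0.13, adjusted p = 0.0275). C3, the central component, went from 60.6, 77.2 and 86.8 to 35.4, 29.5 and 32.7 (-1.17 ± 0.21, adjusted p = 0.0201), and C4b from 5.82, 8.98 and 12.1 to 4.28, 1.66 and 3.48 (-1.27 ± 0.31, adjusted p = 0.0344). The 3 I/R+B12 libraries lay close together for C1s1 and C3 and spread more widely for C4b.

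Resident macrophage markers fell in 4 of 17 tested members and rose in none, with a median of -0.85. Folr2, a folate receptor of these cells, went from 24.7, 36.7 and 27.4 to 17.3, 9.03 and 12.5 (-1.16 ± 0.33, adjusted p = 0.0471). Cbr2, a carbonyl reductase, went from 39, 60.3 and 48.6 to 36.4, 5.25 and 8.83 (-1.91 ± 0.51, adjusted p = 0.042), with I/R+B12 1 close to the Sham+B12 range. Gas6, a ligand for uptake of dead cells, went from 100.3, 99.5 and 96 to 62.6, 39.4 and 63.5 (-0.86 ± 0.20, adjusted p = 0.0298). Cd209f went from 1.27, 1.99 and 1.62 to 0.14, 0.04 and 0 (-1.30 ± 0.22, adjusted p = 0.0184). The summed FPKM of the tested markers was 510.1 to 630.2 in Sham+B12 and 219 to 493 in I/R+B12, and the groups did not overlap, with I/R+B12 1 closest to Sham+B12. C1qa, which these macrophages make, was at 96.3, 119 and 103 in Sham+B12 and 98.5, 36.2 and 57.7 in I/R+B12 (adjusted p = 0.0926). Cd300ld3, of the CD300 family of myeloid receptors, fell from 11, 15.5 and 12.7 to 7.35, 1.29 and 1.62 (-1.92 ± 0.51, adjusted p = 0.0413).

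Antigen presentation genes had a negative difference in 17 of 17 tested members, with a median of -0.62, and 10 of them had separate groups. Psmb9, an immunoproteasome subunit, was the call, going from 12.7, 15 and 15.2 to 6.04, 3.06 and 2.21 (-1.76 ± 0.35, adjusted p = 0.0236). H2-Eb1, a class II chain, was at 82.8, 99.1 and 74.8 in Sham+B12 and 10.1, 27.7 and 29.7 in I/R+B12 (adjusted p = 0.092). Without Sham 3 and I/R 3 in the fit 5 of the 17 fell.

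Inmt, a methyltransferase that uses S-adenosylmethionine, had the largest decrease on the log2(FPKM + 1) scale, though not with a pseudocount of 0.1. It went from 43, 51.6 and 46.8 to 9.63, 1.79 and 2.38 (-3.37 ± 0.56, adjusted p = 0.0184). The ABCA5-like lipid transporters, neighbours in 1 gene cluster, fell in 4 of 5 members. Abca8a went from 30.7, 45.5 and 48 to 16.4, 1.76 and 3.47 (-2.80 ± 0.51, adjusted p = 0.0211), with I/R+B12 1 higher than the other libraries of its group. Abca6 went from 3.93, 6.26 and 5.23 to 2.02, 1.93 and 2.44 (-0.96 ± 0.18, adjusted p = 0.0226), and Abca9 from 4.69, 5.85 and 5.88 to 4.14, 0.5 and 0.67 (-1.46 ± 0.38, adjusted p = 0.0399). Abca8b fell by 1.09 (adjusted p = 0.0265); it is a close paralog of Abca8a, so reads may be shared. Abca5 itself, the fifth member, was at 0.86, 0.78 and 0.85 in Sham+B12 and 1.03, 0.81 and 0.82 in I/R+B12 (adjusted p = 0.869). Connective tissue genes were among the lower ones: the proteoglycan Prelp went from 20.6, 20.0 and 29.4 to 14.5, 3.29 and 2.2 (-2.00 ± 0.46, adjusted p = 0.0293), and Cpxm2, a carboxypeptidase-like protein, from 23.6, 20.1 and 19 to 2.86, 4.1 and 9.35 (-1.89 ± 0.45, adjusted p = 0.032). Of 13 fibroblast markers 10 had a negative difference and 1 fell, Pcolce (-0.72 ± 0.20, adjusted p = 0.0455), against 4 lower and 1 higher without Sham 3 and I/R 3. The smooth muscle myosin Myh11 fell by 0.85 (adjusted p = 0.0461). The part of fibroblast content in the transporter values was not tested.

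**Figure D4:**
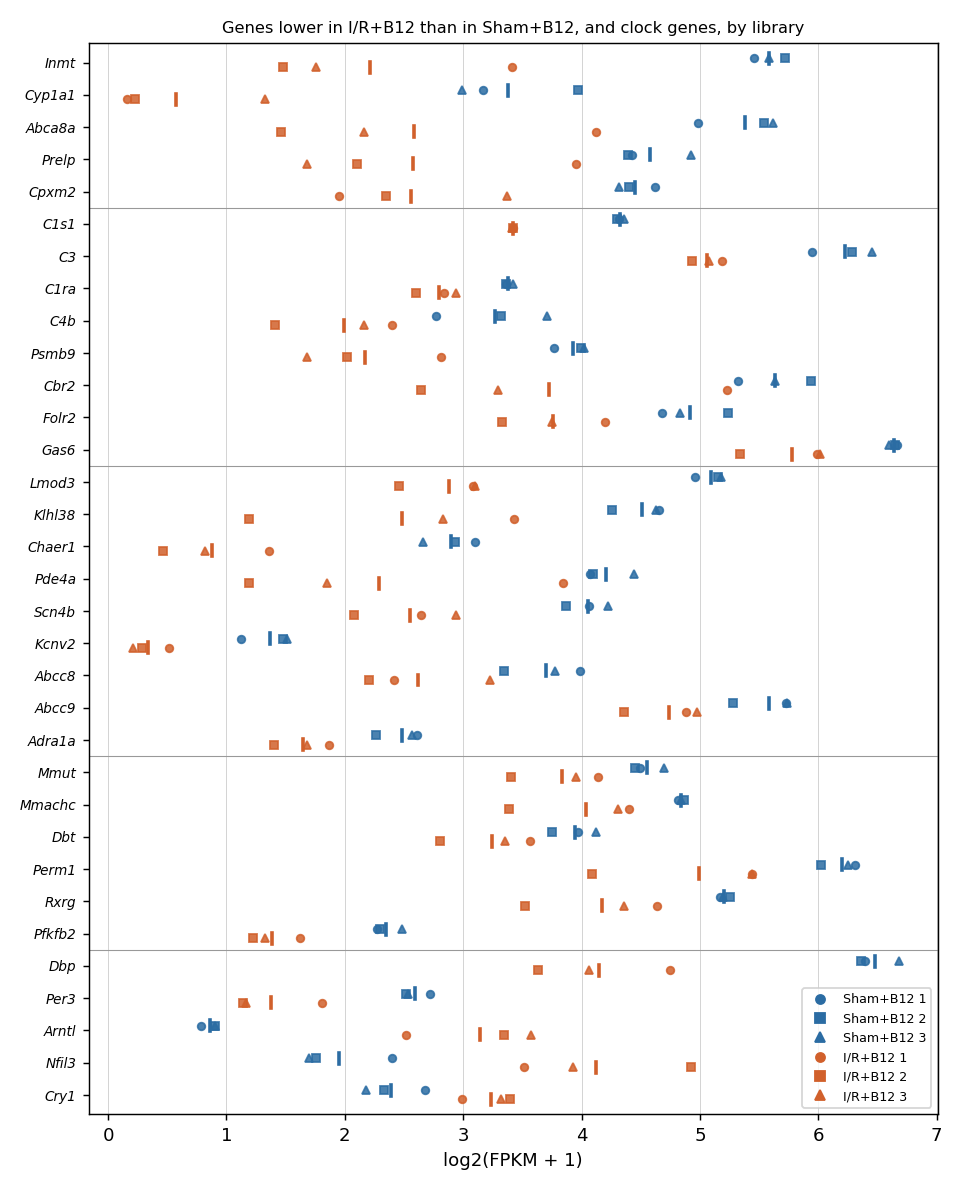
Points give log2(FPKM + 1) in each library, colours and shapes as in the plot of higher genes, for genes called lower, grouped from the top into methyltransferase, lipid transporter and matrix genes, complement and macrophage genes, muscle and channel genes, and metabolic genes. The last 5 rows are clock genes, of which Arntl, Nfil3 and Cry1 were called higher. C1s1 shows 3 nearly coincident points per group.

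Some genes of the contractile and electrical machinery were lower. Lmod3, leiomodin 3, which nucleates thin filaments, went from 30.0, 34.5 and 35.2 to 7.46, 4.48 and 7.56 (-2.22 ± 0.43, adjusted p = 0.0231) and was the 1 call among 17 thick and thin filament genes (2 without Sham 3 and I/R 3). Klhl38, a kelch protein, went from 24.2, 18.1 and 23.7 to 9.76, 1.28 and 6.11 (-2.03 ± 0.44, adjusted p = 0.0265). Chaer1, a heart long noncoding RNA, went from 7.58, 6.64 and 5.33 to 1.57, 0.38 and 0.76 (-2.02 ± 0.39, adjusted p = 0.0231). Ankrd2, a stretch-responsive Z-disc and nuclear protein, rose instead, from 0.1, 0.25 and 0.2 to 14.1, 74.4 and 11.7 (4.36 ± 1.15, adjusted p = 0.0398). Of 18 potassium channel genes 3 fell and 17 had a negative difference, with a median of -0.69 and 5 lower without Sham 3 and I/R 3. Abcc8 and Abcc9, the sulfonylurea receptors of the channel that opens when ATP falls, went from 14.8, 9.19 and 12.7 to 4.34, 3.62 and 8.38 (-1.09 ± 0.29, adjusted p = 0.0398) and from 52, 37.8 and 52.2 to 28.6, 19.5 and 30.5 (-0.84 ± 0.23, adjusted p = 0.0433). Its pore Kcnj11 was at 54.1, 36.5 and 52.5 in Sham+B12 and 33.3, 11 and 27.5 in I/R+B12 and did not pass (adjusted p = 0.0597). Scn4b, a sodium channel beta subunit, went from 15.7, 13.6 and 17.7 to 5.25, 3.22 and 6.66 (-1.50 ± 0.37, adjusted p = 0.0357). Adra1a, the alpha-1A adrenergic receptor, went from 5.11, 3.79 and 4.93 to 2.64, 1.65 and 2.2 (-0.83 ± 0.16, adjusted p = 0.0226). The cAMP phosphodiesterases diverged, Pde4a falling from 15.8, 16.1 and 20.7 to 13.3, 1.28 and 2.6 (-1.91 ± 0.49, adjusted p = 0.0384) and Pde4b rising from 5.08, 6.56 and 6.91 to 13.3, 69.2 and 21.3 (1.98 ± 0.45, adjusted p = 0.0282).

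Of the genes of B12 uptake and use, 2 of 11 tested fell, none rose, and 10 had a negative difference, with a median of -0.49. Mmut, methylmalonyl-CoA mutase, went from 21.6, 20.9 and 24.9 to 16.6, 9.58 and 14.5 (-0.72 ± 0.18, adjusted p = 0.0353). Mmachc, which strips the upper ligand from the vitamin inside the cell, went from 27.1, 28.1 and 27.7 to 20.1, 9.49 and 18.9 (-0.80 ± 0.23, adjusted p = 0.0491). Mtr, methionine synthase, was at 20.2, 26.2 and 20.7 in Sham+B12 and 17.8, 5.25 and 8.86 in I/R+B12 and missed the threshold (adjusted p = 0.053). Both mutase and processing gene were lowest in I/R+B12 2. Branched-chain amino acid breakdown, part of which feeds the mutase, had a negative difference in 19 of 19 tested genes with a median of -0.38. Dbt, a subunit of its dehydrogenase complex, fell from 14.7, 12.4 and 16.4 to 10.8, 5.97 and 9.24 (-0.71 ± 0.19, adjusted p = 0.042) and was the other call beside Mmut. Of 18 folate and methionine cycle genes 5 fell: Inmt and Folr2 above, the folate transporter Slc46a1 (-0.73 ± 0.16, adjusted p = 0.0275), Cth, which makes cysteine from cystathionine (-0.79 ± 0.19, adjusted p = 0.0336), and the serine hydroxymethyltransferase Shmt1 (-0.88 ± 0.25, adjusted p = 0.0483). Mthfd2, a mitochondrial folate enzyme, was at 0.77, 0.75 and 1.05 in Sham+B12 and 3.82, 4.12 and 2.03 in I/R+B12 without passing (adjusted p = 0.0551). With Sham 3 and I/R 3 out of the fit, 1 folate and methionine cycle gene rose and 4 fell.

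Regulators of mitochondrial energy genes were split. Perm1, a muscle regulator of oxidative genes, went from 78.5, 64.1 and 75.3 to 42.4, 16 and 42.4 (-1.21 ± 0.31, adjusted p = 0.0379), and Rxrg, a retinoid receptor, from 35, 37.2 and 35.7 to 23.9, 10.5 and 19.5 (-1.04 ± 0.24, adjusted p = 0.0282). Pprc1 and Nrf1, activators of mitochondrial biogenesis, rose by 1.06 and 0.72 (adjusted p = 0.0236 and 0.0337). Sirt5, a mitochondrial desuccinylase, fell by 0.98 (adjusted p = 0.0277). Pfkfb2, the heart form of the enzyme that makes fructose 2,6-bisphosphate, went from 3.83, 3.91 and 4.6 to 2.07, 1.34 and 1.5 (-0.96 ± 0.15, adjusted p = 0.0155). Of 28 glucose uptake, glycolysis and pyruvate entry genes 1 was called lower, and of 20 AMPK, sirtuin and NAD salvage genes 1. These shares are near the 3.62% called lower over all tested genes. Some metabolic lists had no call in limma: 0 of 29 fatty acid genes, 0 of 19 tricarboxylic acid cycle genes, 0 of 25 nuclear respiratory chain genes and 0 of 11 mitochondrially encoded transcripts. The difference was negative in 25, 18, 21 and 7 of them, with medians of -0.32, -0.20, -0.16 and -0.01. Of 16 ventricular cardiomyocyte markers 14 had a negative difference, with a median of -0.27 and 0 called (1 lower without Sham 3 and I/R 3), and their part in these medians was not tested. Counts at an unadjusted p under 0.05 were 10, 3, 2, 2 and 5 in the order of these 5 lists.

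None of 6 customary stress genes of heart muscle passed the test. Nppb, B-type natriuretic peptide, was at 135, 158 and 170.2 in Sham+B12 and 329, 2039 and 220.0 in I/R+B12, above Sham+B12 in each library but with I/R+B12 2 far from the others (1.78 ± 0.79, adjusted p = 0.146). Nppa, the atrial peptide, was at 218, 216 and 211 in Sham+B12 and 364, 293 and 211 in I/R+B12 (adjusted p = 0.733). Myh6, the adult heavy chain of mouse ventricle, was at 9136, 6975 and 9548 in Sham+B12 and 5294, 5784 and 8937 in I/R+B12 (-0.38 ± 0.23, adjusted p = 0.267). Myh7, the fetal chain, was at 45.5, 12.2 and 27.5 in Sham+B12 and 22.1, 27.6 and 23.9 in I/R+B12 (adjusted p = 0.983). Ankrd1 and Acta1 were not called either (adjusted p = 0.637 and 0.657). I/R+B12 3 had the lowest Ankrd1 of the 6 libraries, at 178, and I/R+B12 2 the highest, at 1523.

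**Figure D5:**
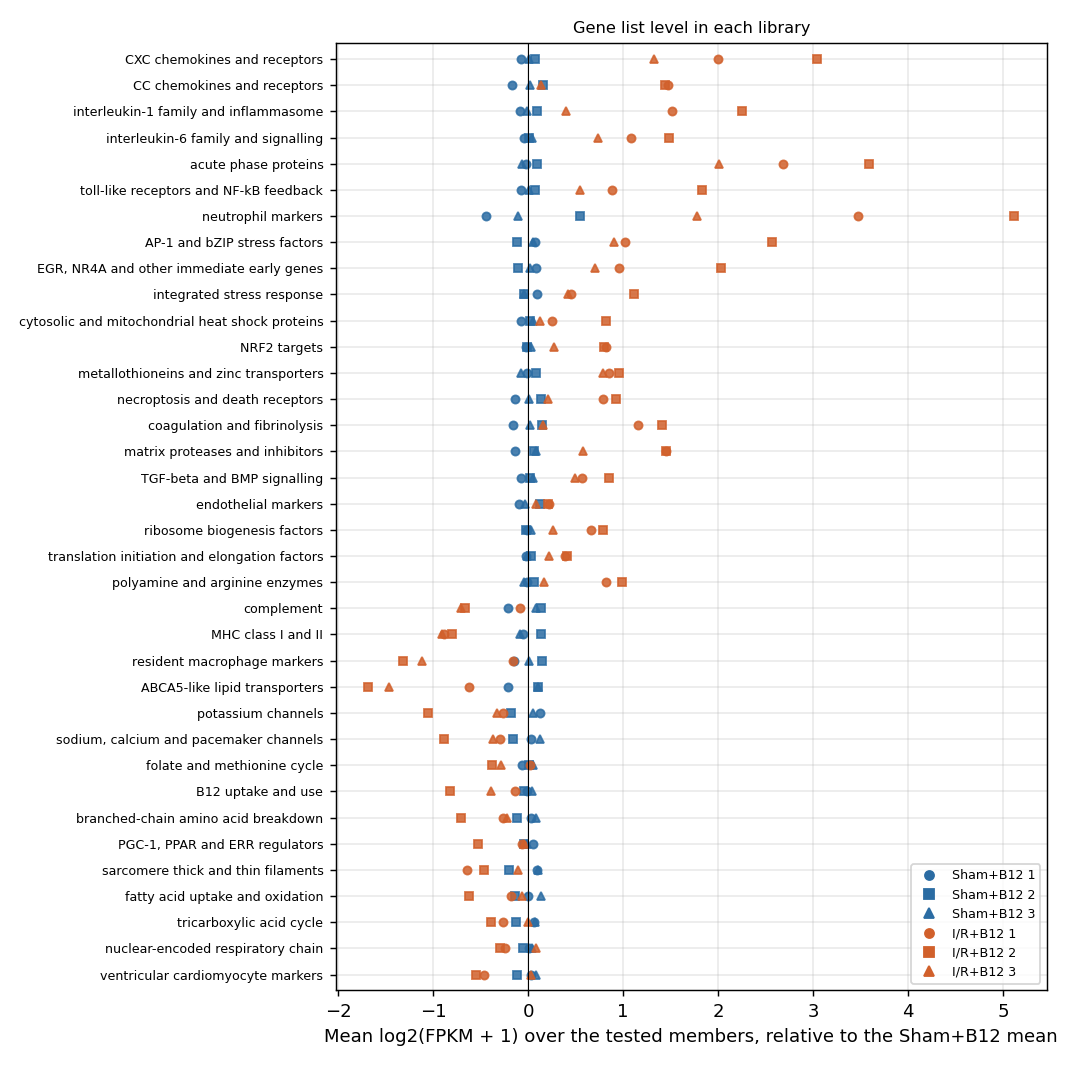
Points give, for each list, the mean log2(FPKM + 1) of its tested members in each library relative to the Sham+B12 mean, colours and shapes as in the plot of higher genes. I/R+B12 libraries spread widely for neutrophil markers and lie close together for the MHC list. In the fatty acid, tricarboxylic acid and ventricular lists I/R+B12 3 (triangle) lies within the range of the Sham+B12 libraries.

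Clock genes changed in both directions. Arntl, which codes for the activator Bmal1, went from 0.72, 0.87 and 0.87 to 4.71, 9.19 and 10.9 (2.28 ± 0.44, adjusted p = 0.0231), and its partner Clock from 1.5, 2.03 and 1.76 to 5.07, 3.07 and 3.31 (0.78 ± 0.21, adjusted p = 0.0431). Dbp, an output factor that Bmal1 and Clock drive, fell from 83.3, 81 and 102 to 25.8, 11.4 and 15.7 (-2.33 ± 0.44, adjusted p = 0.0226). Nfil3, which competes with Dbp at the same sites, went from 4.26, 2.38 and 2.24 to 10.4, 29.4 and 14.2 (2.17 ± 0.42, adjusted p = 0.0231). Of the repressors, Per3 fell from 5.6, 4.71 and 4.8 to 2.51, 1.21 and 1.24 (-1.22 ± 0.27, adjusted p = 0.0274) and Cry1 rose from 5.38, 4.04 and 3.52 to 6.93, 9.5 and 8.99 (0.84 ± 0.20, adjusted p = 0.0327). The 2 groups did not overlap in any of these 6 genes. Among all 14 core clock genes 3 rose and 1 fell. The labels do not give the hour at which hearts were taken, so hour and surgery cannot be told apart. On normal water Dbp was at 107, 123 and 32.4 in Sham and 75.2, 72.2 and 115 in I/R, and Arntl at 0.34, 1.2 and 4.86 in Sham and 1.89, 2.11 and 1.32 in I/R.

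Cyp1a1, the main target of the aryl hydrocarbon receptor, fell from 8, 14.7 and 6.94 to 0.12, 0.17 and 1.51 (-2.80 ± 0.37, adjusted p = 0.0155). With a pseudocount of 0.1 its decrease, -4.37, was larger than that of Inmt, -3.72. Here the Sham+B12 level stood high: on normal water the gene was at 1.96, 1.5 and 0.48 in Sham and 1.22, 0.7 and 1.24 in I/R. Tiparp, another target of this receptor, rose from 1.94, 2.46 and 2.3 to 3.86, 19.3 and 7.09 (1.52 ± 0.38, adjusted p = 0.0362).

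Whether B12 changed the response to I/R was tested as an interaction, the effect of I/R with B12 less the effect without it. No gene passed in limma: 0 of 13001 were called, the smallest adjusted p was 0.387, and 1595 genes had an unadjusted p under 0.05. With Sham 3 and I/R 3 left out, 2 genes were called, Snhg9 and the predicted gene Gm48789, named here because the count is small. Without I/R+B12 1 the count was 1830, and with library weights it was 132. No gene above is thus shown to respond differently under B12, and a p that misses the threshold does not show equal responses. The normal-water libraries lie outside this difference, but they entered the filter and the estimate of spread behind the calls. The shares that follow are therefore no fully separate check. On normal water 92.6% of the 882 higher genes had a positive difference, against 69.1% of all tested genes. Of the 470 lower genes 70.0% had a negative one, against 30.9%. Without Sham 3 and I/R 3 these shares were 95.9% against 68.7% and 83.6% against 31.2%. The genes with the smallest unadjusted interaction p among those described were C3, Smad6 and C1s1. C3 was at 52.5, 62.6 and 39.7 in Sham and 81, 82.8 and 54.8 in I/R on normal water (interaction -1.66, adjusted p = 0.387). Smad6 was at 7.03, 6.46 and 6.34 in Sham and 7.03, 5.28 and 5.71 in I/R (1.27, adjusted p = 0.387), and C1s1 at 19.6, 21.6 and 13.6 in Sham and 21, 21.3 and 23.1 in I/R (-1.17, adjusted p = 0.387). The normal-water groups overlapped for all 3 genes. Without Sham 3 and I/R 3 they no longer overlapped for C3, and the interaction was -1.67 ± 0.24 (adjusted p = 0.232) for C3, 1.26 ± 0.28 (adjusted p = 0.702) for Smad6 and -0.94 ± 0.17 (adjusted p = 0.404) for C1s1.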

How the data were processed

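RNA of mouse hearts was sequenced from poly(A)-selected paired-end libraries, per the labels' protocols. The authors deposited FPKM values for 55487 genes. The submitters' processing notes name HISAT2, StringTie and mm10; tool versions and the annotation are not given in the sources used here. FPKM values are no counts, so depth was estimated from the steps of low values, of which 83.3% to 87.9% were whole within 0.15 fragments in the 6 libraries.

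The test took genes that reached an FPKM of 1 in at least 3 of the 12 libraries and compared log2(FPKM + 1) with limma 3.58.1 (R 4.3.3), with a variance trend, all 4 groups in 1 fit and Benjamini-Hochberg adjustment over all 13001 genes. In simulated data with 200 changed genes among 13001, this comparison recovered 63.2% of changes of 1 and 93.2% of changes of 2, and 4.35% of calls were false. The simulation drew independent normal values with the same SD for a gene in all groups. In the real data the median SD was 0.321 in I/R+B12 and 0.136 in Sham+B12, so these rates need not hold for them. Tables and plots used Python 3.11.15, pandas 2.3.3 and matplotlib 3.10.9.

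The 81 gene lists, the comparison and its members were chosen with earlier results of these data known. Named genes were the 15 largest changes and the 10 widest gaps between groups in each direction (predicted and clone genes left out), up to 6 tested members of each list, taking called members first and then the smallest p, and 6 cardiac stress genes. Not all of these are named, and some results are not reported here. Bmpr2, Id2, Smad7, Tgfbr2, Jak2, Chac1, Fkbp5 and Fos lie outside the rule and were chosen after their values were seen. Promoters came from RefSeq (GRCm38.p6), matched by symbol; gene positions came from GENCODE M21. Alternatives were other pseudocounts, filters, scalings, variance models, library weights, a replicate block and leaving libraries out.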

Additional observations from a re-analysis of the deposited data

How the results depend on the processing

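The number of calls is the least stable result. The counts were 188 higher and 74 lower with no filter on low values (interaction 1), 166 and 75 in the 6 libraries alone, 851 lower after median-ratio scaling, 927 lower after quantile normalization, and 1232 lower with library weights (interaction 132); the cause was not tested, except that the 6 libraries alone leave fewer samples. With Sham 3 and I/R 3 left out the counts were 1071 higher and 588 lower, with 2 for the interaction. Leaving out 1 library at a time gave 0 to 1346 genes higher, 0 to 2490 lower and 0 to 1830 for the interaction. The share of higher calls was 65.2% as reported, 55.2% after median-ratio scaling, 48.2% after quantile normalization and 45.3% with library weights.

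With the replicate number as a block, 656 genes were higher and 401 lower. Replicate numbers are shared by the labels, but deviations of same-numbered Sham+B12 and I/R+B12 libraries correlated at 0.034, 0.153 and 0.099, so the numbers were not taken as pairs.

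Of the 179 genes followed, the 154 called ones kept their direction in all alternatives run. This was largely set beforehand, because only 3 of all 1352 called genes had overlapping groups. Where groups do not overlap, leaving out a library or changing the pseudocount cannot reverse a difference. Over all 4268 values, 3106 kept direction and side of the threshold, 1082 no longer passed, 73 newly passed and 7 reversed, all 7 in uncalled genes. Ankrd1 was -0.22 with library weights. Over the fits without 1 library, Ankrd1 ranged from -0.18 (without I/R+B12 2) to 1.36, Myh7 from -0.52 to 0.39 (without Sham+B12 1; also above 0 without Sham+B12 3 or I/R+B12 1), Abca5 from -0.012 (without I/R+B12 1) to 0.071 and Acta1 from -0.66 to 0.15 (without I/R+B12 1). Of 1919 list medians 53 moved by more than the spread of the I/R+B12 libraries. Depth limits genes near an FPKM of 1, and 3 libraries a group limit every test.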
